A study of Mus musculus with 2 samples.

Results

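The 9 genes described here encode parts of the thick filament of heart muscle and of the M-band that holds thick filaments in register. They were chosen by function and taken from the files by gene symbol, as 9 of 25004 genes with a summed count, and cover Mybpc3, the 4 cardiac myosin light chain genes Myl2, Myl3, Myl4 and Myl7, the titin gene Ttn and the myomesin genes Myom1, Myom2 and Myom3. The study compared the hearts of FVB/N mice aged 12 weeks, 1 library from non-transgenic mice, called the control library below, and 1 from transgenic mice whose added cardiac myosin binding protein-C has the N'-C0-C1f region deleted. Each library came from 3 hearts combined, so no difference between the libraries has a replicate check, and every interval below covers counting error only. What drives the transgene, how many transgenic lines were used and whether the endogenous Mybpc3 gene was intact is not given in the sources used here. Reads were counted per RefSeq transcript, with a total of 170543 for the control and 190824 for the transgenic library. The 9 genes had 14 transcripts among those counted. The kit kept the strand of each read, but which strand was counted is not stated, so whether a low count means low expression was not tested.

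The protein made from Mybpc3, cardiac myosin binding protein-C, lies in regular stripes along the thick filament, is anchored there by its carboxyl end through titin and myosin, and reaches with its amino-terminal domains towards myosin heads and actin. Each myosin head carries an essential and a regulatory light chain, which in the adult ventricle are the products of Myl3 and Myl2 and in the atrium those of Myl4 and Myl7. Titin spans from the Z-disc to the M-band as a molecular spring and ruler, and myomesins cross-link titin and myosin in the M-band.

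Promoter sequences are shown first for the endogenous Mybpc3 gene, and for a ventricular and an atrial light chain gene, Myl3 and Myl7, that had no count in either library. They come from RefSeq (assembly GRCm38.p6, a C57BL/6J reference) and run from 250 to 51 bases before the annotated start, 5′ to 3′ on the gene's strand. Capitals mark a match to the motif of MEF2, a family of muscle transcription factors, in Mybpc3 and to the CArG box, the core of sites for serum response factor, in Myl3 and Myl7.
Mybpc3 (chr2:91117894-91118093, plus strand): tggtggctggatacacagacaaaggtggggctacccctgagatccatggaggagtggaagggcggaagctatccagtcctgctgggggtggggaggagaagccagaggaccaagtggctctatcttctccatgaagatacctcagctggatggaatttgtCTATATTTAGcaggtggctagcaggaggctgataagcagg
Myl3 (chr9:110763428-110763627, plus strand): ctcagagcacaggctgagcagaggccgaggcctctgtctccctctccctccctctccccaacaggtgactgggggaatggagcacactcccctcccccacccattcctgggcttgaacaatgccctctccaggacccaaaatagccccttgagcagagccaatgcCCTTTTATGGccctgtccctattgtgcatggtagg
Myl7 (chr11:5898833-5899032, minus strand): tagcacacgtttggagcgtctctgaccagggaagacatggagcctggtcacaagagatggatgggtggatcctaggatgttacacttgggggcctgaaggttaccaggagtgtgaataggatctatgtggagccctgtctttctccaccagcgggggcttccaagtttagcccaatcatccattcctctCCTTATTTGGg
The match lies 90 to 81 bases before the start in Mybpc3, 85 to 76 in Myl3 and 61 to 52 in Myl7. Of 9 members, 8 had a promoter window in the table, Myom2 being the one without, and in 7 of them the start used lay within 100 bp of the start of a counted transcript. Both starts listed for Myl2 lay 8227 and 7762 bp upstream of its counted transcript and were not used. Searched on both strands over 250 bases before to 50 after the start, 6 of these 7 windows held a MEF2 or CArG match (MEF2 in Mybpc3, Ttn and Myom3, CArG in Myl3, Myl7 and Myom1, and neither in Myl4), and no window held both. Of all 32851 windows of this length, 3.19% held a MEF2 match, 1.63% a CArG match and 4.74% either of them. The letters TATAAA were in none of the 7 windows and in 13.6% of all windows. A match describes letters only, and no binding was measured.

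Only Myl2, Mybpc3 and Myom2 were counted deeply enough for a ratio with a narrow interval. Ttn had 9 and 11 counts, Myom1 and Myom3 had 1 count in the control library and none in the transgenic library, and Myl3, Myl4 and Myl7 had 0 in both. With TMM normalisation, which scales libraries by the trimmed mean of gene ratios, 0 of the 4 members with a ratio were at least 1.5-fold apart with an interval on the same side of 1. Of 4236 genes with a ratio, 9.32% met that rule (3.42% higher and 5.9% lower), so 0 of 4 is close to what the background share gives. At a lower threshold of 0.32 on the log2 scale, Myl2 was the one member to meet the rule, as higher in the transgenic library. At that threshold 3.9% of all genes with a ratio were called higher and 8.03% lower, 11.9% together. With TMM over genes with no opposite-strand overlap, Myl2 was at 0.27 on the log2 scale, under this lower threshold, and was not called. The median log2 ratio of the 4 members was 0.02, beside 0.05 for all genes with a ratio.

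**Figure D1:**
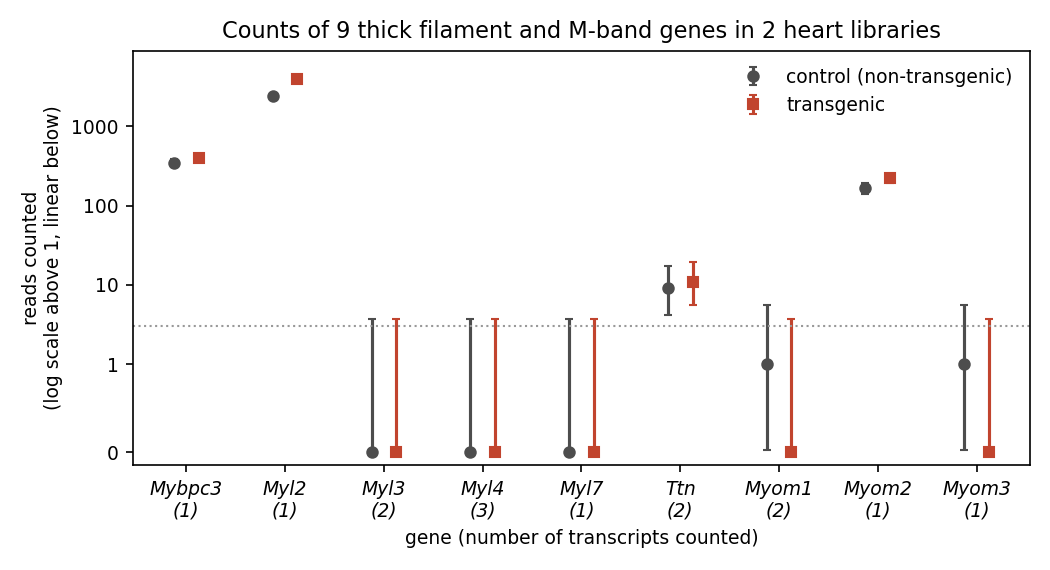
Reads counted (vertical axis, log scale above 1 and linear below) for each of the 9 genes in the control (circles) and the transgenic library (squares), with the number of counted transcripts under each name, exact 95% Poisson intervals as bars and a dotted line at the floor of 3 counts. Myl2 stands at 2405 and 3916, Mybpc3 and Myom2 lie between 165 and 398, Ttn at 9 and 11, and the other 5 genes at 0 or 1.

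Mybpc3 (chromosome 2, 91118144 to 91136516, GRCm38, plus strand) was counted 344 times in the control and 398 times in the transgenic library. All of them lay on its single counted transcript, which has 35 exons and 4163 bp. By count it ranked 76th and 69th of all genes. In normalised CPM, counts scaled to a common library total, its level was 2139 and 1967, a ratio of 0.920 (95% counting interval 0.794 to 1.07), so the interval holds 1. A transcript of the transgene and one of the endogenous gene share sequence outside the deleted region, and a count over the whole transcript cannot separate them. Its nearest gene on the opposite strand, Madd, lies 844 bp away and had 0 counts in both libraries. Among 86 genes like it, with a summed count of at least 100 and an opposite-strand exon within 5 kb but no overlap, the median log2 ratio was 0.08 with quartiles at -0.14 and 0.35. At -0.12, Mybpc3 lay between them.

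Of the regulatory light chains, the ventricular gene Myl2 (chromosome 5, 122100951 to 122113472, plus) was the most counted member, and the atrial gene Myl7 had no count. Myl2 had 2405 counts in the control and 3916 in the transgenic library, all on 1 transcript of 7 exons and 662 bp, and ranked 5th and 4th by count of all genes. At 14951 and 19356 normalised CPM it was 1.29-fold higher in the transgenic library (1.23 to 1.36). Of 513 genes with at least 100 counts, 55 had a higher ratio. Some exons annotated for Myl2 overlap the gene Ccdc63 on the opposite strand by 60 bp, but the counted transcript shares none of them, and Ccdc63 had 1 and 0 counts. Myl7 (chromosome 11, 5896637 to 5898782, minus strand) also has a single counted transcript, of 7 exons and 590 bp, and lies more than 5 kb from any opposite-strand exon. A count of 0 allows up to 3 counts, so Myl7 could make up to 0.125% of the Myl2 and Myl7 counts in the control and 0.0766% in the transgenic library. Reads that the counting left out or gave to another feature are not covered by this limit.

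Both essential light chain genes were at 0, the ventricular Myl3 (chromosome 9, 110741861 to 110769798, plus strand) as well as the atrial Myl4 (chromosome 11, 104550663 to 104595753, plus strand). No share of the atrial form in this pair could therefore be given. Myl3 was counted as 2 transcripts and Myl4 as 3. By the GENCODE structures, the 3 Myl4 transcripts of 943, 900 and 879 bp have only 183, 140 and 119 bp each that no other counted Myl4 transcript contains. Opposite-strand exons overlap Myl3 by 95 bp (Pth1r, with 0 counts in both libraries) and Myl4 by 3 bp (Gm22000). The 95 bp share nothing with the counted Myl3 transcript that has a GENCODE match. For Myl3 only 1 of 2 transcripts has a GENCODE match, and its unshared bases were not computed. The floor of 3 counts lies at 18.7 normalised CPM in the control and 14.8 in the transgenic library for each of these genes. As for Myl7, reads that the counting left out or gave to another feature are not covered by this floor.

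Titin, by far the longest member, had few counts in both libraries. Its 2 counted transcripts had 8 and 1 counts in the control and 9 and 2 in the transgenic library. The gene's sum gave a ratio of 0.972 with an interval from 0.366 to 2.65. At this depth the interval still holds differences of well over 2-fold in either direction. The first transcript has 312 exons and 100404 bp, of which 22411 bp (22.3%) are not in the second, and the second has 192 exons and 81843 bp, of which 3850 bp (4.70%) are its own. Per kb of such unshared sequence, the first had 0.357 and 0.402 raw counts and the second 0.260 and 0.519. Mybpc3 had 82.6 and 95.6 raw counts per kb of its transcript. Ttn (chromosome 2, 76703980 to 76982547, minus strand) overlaps the antisense gene Gm13938 by 453 bp, which touches its counted transcripts too and makes part of its count uncertain.

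Of the myomesin genes, Myom2 was counted well and its paralogs were not. Myom2, which encodes the M-protein of fast and cardiac muscle (chromosome 8, 15057653 to 15133541, plus strand), had 165 control and 220 transgenic counts on 1 transcript of 37 exons and 5075 bp. The ratio of normalised counts was 1.06 (0.862 to 1.31), and the interval holds 1. None of its exons overlaps an opposite-strand gene. Myom3 (chromosome 4, 135759715 to 135815564, plus strand) has 1 counted transcript of nearly the same length, 5575 bp, and had 1 and 0 counts. Myom1 (chromosome 17, 71002633 to 71126856, plus strand), which encodes myomesin, also had 1 and 0 counts. Its 2 counted transcripts, of 5648 and 5316 bp, have 333 and 1 bp that the other lacks, and the 1 count lay on the first of them. The myosin light chain gene Myl12a on the opposite strand overlaps exons of Myom1 by 207 bp, none of them in the counted transcripts, and had 0 and 2 counts.

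Which members were counted went with how many transcripts each has in the files. Of the 5 members with 1 transcript, 3 had at least 10 counts in both libraries, and of the 4 with several, none had. Over all genes, 8.95% and 10.8% of the 17075 with 1 transcript reached 10 counts in the control and the transgenic library, against 2.12% and 2.19% of the 7929 with several. Myl7 and Myom3 are the members that have 1 transcript and yet almost no count. The part of transcript number in these low counts was not tested.

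Levels can be compared between genes only per length, and only for members with a single counted transcript. Per kb of transcript, Myl2 stood at 22585 normalised CPM in the control library (counting interval 21697 to 23499), Mybpc3 at 514 (461 to 571) and Myom2 at 202 (172 to 235). In the transgenic library the same genes stood at 29239 (28339 to 30159), 473 (427 to 521) and 214 (187 to 245). The order was thus Myl2, Mybpc3, Myom2 in both libraries, with no overlap of intervals between neighbours. These are levels of counted reads. The counted strand is not stated, and whether these levels follow expression was not tested. Per kb, Myl2 was 44.0-fold above Mybpc3 (39.3 to 49.4) in the control and 61.9-fold (55.8 to 68.8) in the transgenic library. Mybpc3 was 2.54-fold (2.10 to 3.08) and 2.21-fold (1.87 to 2.61) above Myom2. Myom3 with 1 and 0 counts and Myl7 with none came below these. Per kb, Myl2 was 714-fold and 1163-fold higher than the floor of 3 counts per library for Myl7.

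Within a library the members can also be set against each other, which needs no scaling between libraries. Mybpc3 made 11.8% of the counts of all 9 members in the control library (exact Clopper-Pearson interval 10.6 to 13.0) and 8.76% in the transgenic library (7.95 to 9.62). Its odds against the other 8 were 0.720 times as high in the transgenic library (0.617 to 0.841). Myl2 made 82.2% (80.8 to 83.6) and 86.2% (85.1 to 87.2), and Myom2 5.64% (4.83 to 6.54) and 4.84% (4.23 to 5.51). Without Myl2 in the denominator, Mybpc3 made 66.2% (61.9 to 70.2) and 63.3% (59.4 to 67.1) and Myom2 31.7% (27.7 to 35.9) and 35.0% (31.2 to 38.8). Each pair of intervals without Myl2 overlaps. There were 6.99 Myl2 counts for each Mybpc3 count in the control and 9.84 in the transgenic library, a change of 1.41-fold (1.20 to 1.64). Myom2 per Mybpc3 went from 0.480 to 0.553, 1.15-fold (0.893 to 1.49), and its interval holds 1.

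Listed genes with at least 100 counts in each library were set against Mybpc3 in the same way, which made 13 comparisons. Myl2 and 4 others had an interval above 1, and 8 had an interval that holds 1. Those above were the troponin genes Tnnc1 at 1.72-fold (1.42 to 2.10) and Tnni3 at 1.52-fold (1.28 to 1.80), Tcap, which caps titin at the Z-disc, at 1.48-fold (1.20 to 1.81), and the cardiac actin gene Actc1 at 1.45-fold (1.23 to 1.72). The alpha-actinin gene Actn2, whose product anchors actin and titin in the Z-disc, was at 1.11-fold (0.896 to 1.38). Set against Myl2 instead, Mybpc3 was at 0.711 (0.608 to 0.831) and Actn2 at 0.789 (0.671 to 0.929). Tcap, Tnni3 and Actc1 had intervals that hold 1 against Myl2, and Tnnc1 was at 1.22 (1.07 to 1.41). The listed genes whose ratio lay nearest to that of Mybpc3, among 40 with a summed count of at least 30, were the muscle creatine kinase gene Ckm (ratio 0.921, 0.795 to 1.07), the small heat shock protein gene Cryab (0.921, 0.840 to 1.01) and Naca, which encodes a chaperone of nascent proteins and had only 14 and 16 counts (0.909, 0.416 to 2.01). With 2 libraries this likeness rests on 1 ratio for each gene. Unlike Mybpc3, Ckm and Cryab overlap genes on the opposite strand, A930016O22Rik and Hspb2.

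**Figure D2:**
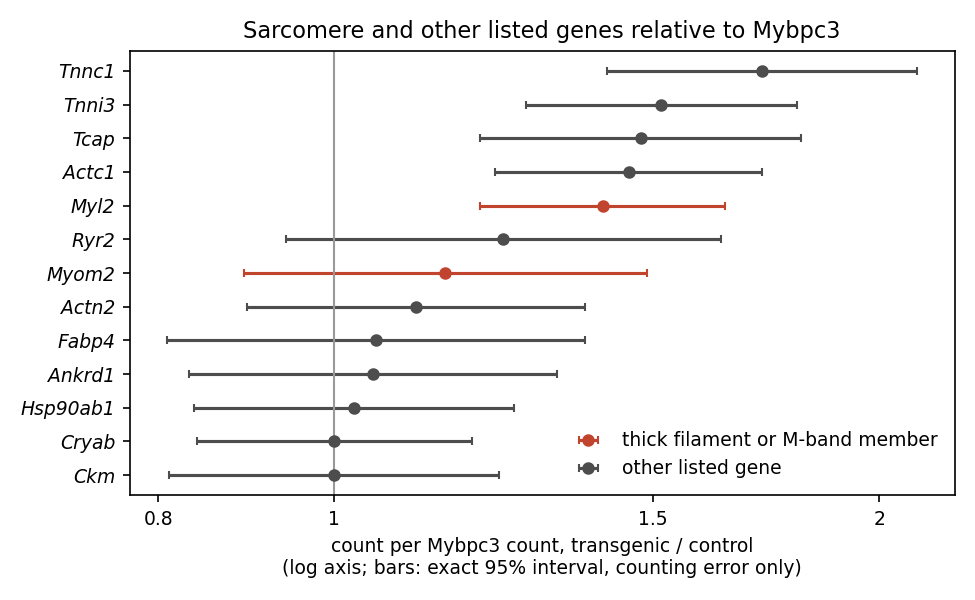
Change in the count per Mybpc3 count, transgenic over control (horizontal log axis), for 13 listed genes with at least 100 counts in each library, with exact 95% intervals for counting error as bars and members in red. Myl2 lies at 1.41 among Tnnc1, Tnni3, Tcap and Actc1, whose bars do not reach 1, while Myom2 and Actn2 have bars that do.

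Transcript length moved with the ratio as well. Among 131 genes with 1 counted transcript, at least 100 counts and no opposite-strand exon overlap, the median log2 ratio was 0.44 (quartiles 0.06 and 0.63) for 24 transcripts under 1 kb. It was 0.06 (-0.14 and 0.35) for 38 of 1 to 2 kb and 0.03 (-0.23 and 0.19) for 69 over 2 kb. Across these genes, which share both libraries, Spearman's rho between length and log2 ratio was -0.25. Over all 451 such genes, with and without overlap, rho was -0.11 and the medians were 0.06, -0.10 and -0.20. At 662 bp and a log2 ratio of 0.37, Myl2 lay within the quartiles of the short transcripts without overlap. So did Tcap at 948 bp and 0.44 and Tnni3 at 912 bp and 0.48, while Tnnc1 at 721 bp and 0.67 lay above them. Actc1, at 1473 bp and 0.42, lay above the quartiles of the transcripts of 1 to 2 kb. Myl2 is not one of these 131 genes, because exons outside its counted transcript overlap Ccdc63. Among 370 genes of the overlapping class with a summed count of at least 100, the median was -0.29 with quartiles at -0.47 and -0.04, and Myl2 lay above them. Mybpc3 and Myom2, over 4 and 5 kb long, lay at -0.12 and 0.08, within the quartiles of the transcripts over 2 kb. The part of length in the difference between Myl2 and the longer members was not tested.

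**Figure D3:**
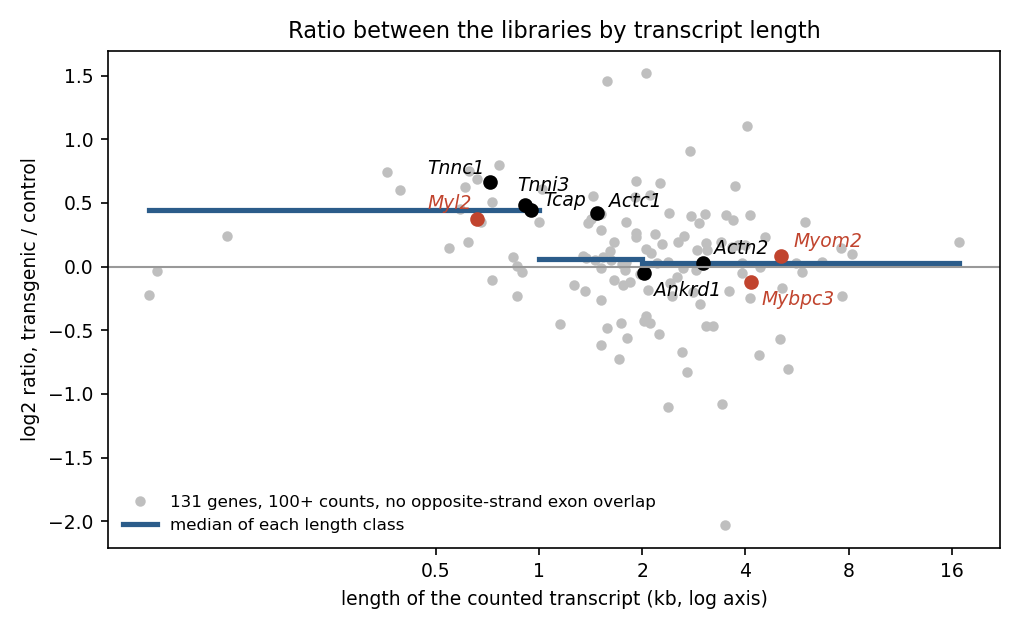
Log2 ratio of normalised counts, transgenic over control, against the length of the counted transcript in kb (log axis) for 131 genes with no opposite-strand exon overlap (grey), with the median of each of 3 length classes as a bar, members in red and other named genes in black. The bar for transcripts under 1 kb is at 0.44 and the bars for longer transcripts are at 0.06 and 0.03, and Myl2 lies near the first while Mybpc3 and Myom2 lie near the last.

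The sign of 3 of the 4 ratios depended on how the libraries were scaled. Over 7 ways of scaling, Myl2 was above 1 in all 7, from 1.21 (TMM over genes with no opposite-strand overlap) to 1.46 (total counts alone). Mybpc3 was above 1 in 1 of 7, at 1.03 (0.893 to 1.20) with total counts alone, and its interval lay below 1 with TMM over genes with no opposite-strand overlap, at 0.859 (0.741 to 0.995). Myom2 was above 1 in 6 of 7 and at 0.989 in that same setting, and Ttn was above 1 in 2 of 7. The median log2 ratio of all genes moved by 0.11 with DESeq2 size factors, by 0.17 with total counts and by -0.10 with TMM over genes with no overlap. The higher calls among all genes at least 1.5-fold apart were 36.7% with TMM, 54.1% with DESeq2 size factors, 62.2% with total counts and 25.1% with TMM over genes with no overlap.

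**Figure D4:**
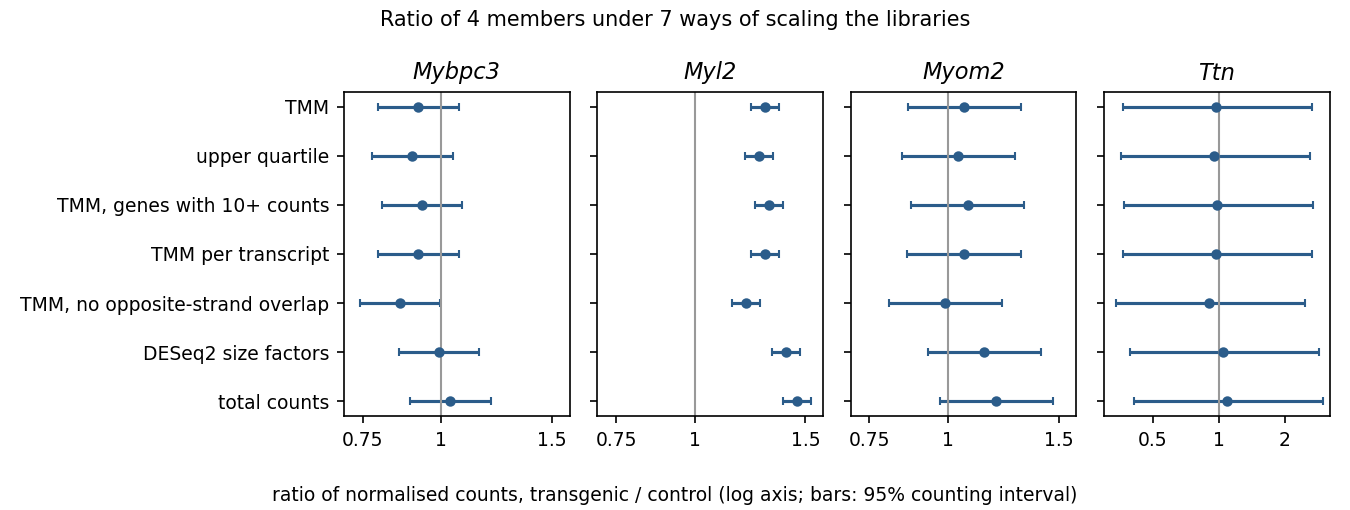
Normalised counts of the transgenic divided by those of the control library (horizontal log axes, which differ in range for Ttn), of the 4 members with a ratio under 7 ways of scaling, with 95% counting intervals as bars and a line at 1. The bars of Myl2 lie above 1 in every row, those of Myom2 and Ttn hold 1 in every row, and that of Mybpc3 leaves 1 only with TMM over genes with no opposite-strand overlap.

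Other genes of the thick filament and its surroundings were called by the same 1.5-fold rule, which 9.32% of all genes with a ratio met. The median log2 ratio of all genes with a ratio was 0.05. Of 18 other thick filament genes, 6 had a ratio, of which 0 were called, and the median log2 ratio was -0.11. Myh6, the main myosin heavy chain gene of the adult mouse heart, had 0 and 1 counts and no ratio. Myh7b, a slow-type myosin heavy chain gene, had 70 and 95 counts (ratio 1.08, 0.784 to 1.49) and Myh7, the beta myosin heavy chain gene, had 27 and 20 (0.589, 0.313 to 1.09). On the opposite strand, Myh7b overlaps Trpc4ap, and Myh7 overlaps Mhrt, Gm29015 and Gm31251. Of 21 M-band and titin partner genes, 13 had a ratio, 0 were higher and 1 was lower, with a median of -0.04. The lower one was Lrrc39, whose product myomasp is an M-band protein that binds the myosin rod, with 82 and 67 counts (0.650, 0.463 to 0.908). Lrrc39 overlaps Trmt13 and Gm42940 on the opposite strand, and the list had no lower call with DESeq2 size factors or total counts. Of the other partners, Tcap had 323 and 552 counts (1.36, 1.18 to 1.56), and Ankrd1, a stretch-responsive partner of titin, had 227 and 276 (0.967, 0.808 to 1.16). Trim63, whose product MuRF1 is a ubiquitin ligase at the M-band, had 25 and 30 counts (0.954, 0.542 to 1.69).

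Genes that act on thick filament proteins gave no call at 1.5-fold, beside 9.32% of all genes with a ratio. Only 7 of the kinase and phosphatase genes and 8 of the assembly factor genes had at least 10 counts in both libraries. With so few counts, the lack of a call says little about these genes. Of 28 kinase and phosphatase genes, 16 had a ratio and 0 were called, with a median of -0.04. The most counted over both libraries together were Ppp1cb, the catalytic subunit of myosin phosphatase, with 43 and 69 counts (1.28, 0.859 to 1.91), and the phosphatase gene Ppp1ca with 22 and 42 (1.52, 0.886 to 2.67). Mylk3, the cardiac kinase of the regulatory light chain, had 5 and 5 counts. Of 12 assembly factor genes, 8 had a ratio and 0 were called, with a median of 0.15. The chaperone gene Hsp90ab1 had 380 and 451 counts (0.944, 0.821 to 1.08), the myosin gene Myo18b had 49 and 64 (1.04, 0.705 to 1.54), and Unc45b, a chaperone for myosin folding, had 21 and 37 (1.40, 0.799 to 2.52). The medians of the thick filament, partner and kinase lists changed sign with total counts alone, and those of the partner and kinase lists did so under DESeq2 size factors too. Tcap became a higher call with total counts.

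Markers of heart tissue were counted unevenly. Of 10 cardiomyocyte markers, 5 had at least 10 counts in both libraries, and all 10 together summed to 14118 normalised CPM in the control and 19430 in the transgenic library, while Tnnt2 and Tpm1 were at 0 in both. Of the 5 with a ratio, Tnnc1 was the one called, with 357 and 712 counts (1.59, 1.39 to 1.81). Of all 4236 genes with a ratio, 3.42% were called higher and 5.9% lower at 1.5-fold. Tnnc1 was not called with TMM over genes with no opposite-strand overlap, whereas total counts called 3 of the markers and DESeq2 size factors 2. Higher calls over all genes moved the same way. They numbered 145 under TMM, 110 under TMM over genes with no overlap, 244 for total counts and 218 for DESeq2 size factors. Of 12 atrial markers, 3 had a count. Nppa, the gene of atrial natriuretic peptide, had 9 and 31 counts and was called higher, at a ratio of 2.74 (1.27 to 6.54). Only 2 atrial markers had a ratio. Nppa overlaps Gm13054 on the opposite strand, and its call under other scalings is not given here. Sln, Bmp10, Myl4 and Myl7 were at 0, and the sum of the atrial markers was 87.0 and 188 normalised CPM. The 8 ventricular markers summed to 15336 and 19663, most of it Myl2 itself. The 3 others with a ratio lay below 1, Irx4 at 0.928 (0.267 to 3.34), Fhl2 at 0.742 (0.332 to 1.65) and Lbh at 0.737 (0.461 to 1.17), each with an interval that holds 1. Fibroblast markers summed to 317 and 193, with the collagen gene Col3a1 at 23 and 14 counts (0.484, 0.230 to 0.981), a call that total counts or DESeq2 size factors in place of TMM did not give. The sums were 1386 and 1275 for endothelial, 218 and 213 for smooth muscle, 87.0 and 98.9 for macrophage and 2132 and 1962 for skeletal muscle markers, the last almost all from Ckm, which the heart also expresses. In such pooled tissue, fewer cells of a type and less RNA per cell cannot be told apart, and the part of these markers in the ratio of Myl2 was not tested.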

How the data were processed

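Messenger RNA of 2 heart libraries, each pooled from 3 mice, was measured. The deposited values are raw counts per RefSeq transcript. STAR, HTSeq and the build mm10 are named in the submitters' processing notes, and per the labels' protocols the kit keeps strand origin. The strand setting of the counting is not given in the sources used here, nor is the annotation.

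Of 41449 accessions, 41252 were named from RefSeq and 99 from GENCODE M21 (GRCm38). A further 98, with 1.81% and 1.66% of counts, kept their own rows. Counts were summed per gene and scaled with TMM factors (0.943 and 1.06; edgeR 4.0.16, R 4.3.3). With 1 library per group no test was run, and depth sets the precision. Ratios have exact 95% Clopper-Pearson intervals from the binomial share of counts, and relative counts have exact conditional odds-ratio intervals. A ratio was given where either library held more than 3 counts. The calculation of ratios and intervals was tested on simulated counts with Poisson noise only, scaled by library totals. That simulation had no TMM scaling and no differences between hearts, so it does not check either. Alternatives were other scalings including DESeq2 1.42.0 size factors, a count filter, Wilson intervals and single transcripts. Structures and overlaps are those of GENCODE.

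Members and lists were chosen with earlier results of these data known. Named were the members, called list genes or else the 2 most counted, genes opposite members, and the 3 genes nearest to Mybpc3 in ratio. Other genes named, the length classes and the comparisons with Mybpc3 were chosen after values were seen. Not every gene that this rule takes is reported here. Of the listed names, Zipk had no match and Ttid was read as Myot. Python 3.11.15 with numpy 2.4.6, scipy 1.17.1, pandas 2.3.3 and matplotlib 3.10.9 was used.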

Additional observations from a re-analysis of the deposited data

How the results depend on the processing

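Of the alternatives tried, 38 left a value within its counting interval or a count within 1.5 times, and 10 moved it. The 38 include some that could not move a value by construction. Wilson intervals change only the interval and not the ratio. Taking the most counted transcript alone changes nothing for Mybpc3, Myl2 and Myom2, which have 1 counted transcript each. A reversed call was not possible for a member, because none was called at 1.5-fold with TMM. Changes of sign inside the counting interval, as for Mybpc3, Myom2 and Ttn, were among the 38. The ratio of Myl2 moved to 1.40 with DESeq2 size factors, 1.46 with total counts and 1.21 with TMM over genes with no opposite-strand overlap, as the scaling itself differs. The number of members called was 0 under each scaling and 1, Myl2, at a threshold of 0.32 on the log2 scale with TMM over all genes. With TMM over genes with no overlap Myl2 is at 0.27 and below that threshold. Leaving Myl2 out of the denominator moved the shares, by construction, to 66.2% and 63.3% for Mybpc3, 1.73% and 1.75% for Ttn and 31.7% and 35.0% for Myom2 in the non-transgenic and the transgenic library. The number of genes at least 1.5-fold apart was 395 and lay within 1.5 times of it in each alternative, from 342 with a minimum of 10 counts to 438 with TMM over genes with no overlap. No paired analysis was possible because each group has 1 library. No library could be left out. Depth limits Ttn to an interval of 0.366 to 2.65, and the 5 members with 0 or 1 count have no ratio. Why these counts are so low was not tested.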
